A study of Sus scrofa with 6 samples.

Results

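MHC class II genes encode the cell-surface receptors that show peptides from engulfed proteins to CD4+ T cells. In pigs they are called SLA class II genes, for swine leucocyte antigen. Their expression was read from 6 poly(A) RNA sequencing libraries, each of the cervical spinal cord of 1 male pig, 140 days old. The 3 maternal deletion animals had inherited a deletion of UBE3A, an E3 ubiquitin ligase gene, from the mother, and the 3 wild-type animals carried none. The study asks how gene expression differs when the maternal copy is missing. The extent of the deletion is not given in the labels.

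Of the 10 listed gene names, 5 matched a row by its exact name among the 28965 genes of the table: SLA-DQB1, SLA-DMA, SLA-DMB, SLA-DOA and CIITA. These 5 are the members. A further 3 rows are described beside them and are counted apart. CD74 was reached through a table that pairs Ensembl IDs with symbols, and the rows HLA-DRA and HLA-DOB bear human-style names in these pig files where SLA-DRA and SLA-DOB were listed. SLA-DRB1 and SLA-DQA1 were not analysed here. All 5 members and all 3 further rows held enough reads to be tested.

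A class II molecule is an alpha and a beta chain that pair in the endoplasmic reticulum around the invariant chain, the product of CD74, which blocks the groove and steers the complex to endosomes. Proteases there trim the invariant chain to a short fragment, and the DM heterodimer exchanges that fragment for antigen peptides while the DO heterodimer restrains DM. Transcription of these genes depends on CIITA, a coactivator that acts through RFX and NF-Y factors on their promoters. In the brain and cord, class II is known chiefly on perivascular and meningeal macrophages and on activated microglia.

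RefSeq's gene table for Sscrofa11.1, taken here for gene names and their order alone, places the class II genes in 1 block. Their order is SLA-DRA, SLA-DRB1, SLA-DQA1, SLA-DQB1, SLA-DOB, SLA-DMB, SLA-DMA and SLA-DOA. The class I and proteasome genes TAP2, PSMB8, TAP1 and PSMB9 lie between SLA-DOB and SLA-DMB. CD74 and CIITA lie outside the block. Pseudogenes named SLA-DRB4, SLA-DRB5, SLA-DQB2 and SLA-DYB stand among the block's members. No source read here tells how reads shared by near-identical copies were counted, so the SLA-DQB1 counts in particular are uncertain.

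Libraries held 17181003 to 22492366 exon reads. UBE3A fell to 23.3 ± 3.26 CPM (reads scaled to a common library total by TMM) in deletion animals, against 61.0 ± 4.25 CPM in wild-type animals (SD, n = 3 each; edgeR quasi-likelihood adjusted p 0.0253). That adjusted p was 0.0728, 0.0886, 0.0822 and 0.152 without deletion replicates 1, 2 and 3 and wild-type replicate 1, the libraries whose loss ended the call, and 0.0526 with the animals' ID prefix (described further on) as a block. Markers of neurons, oligodendrocytes and astrocytes had reads in all 6 libraries. Summed neuron markers ran from 4729 to 9779 CPM in deletion libraries and from 974 to 3329 CPM in wild-type libraries, without overlap. Wild-type replicate 3 stood apart from the other 5 libraries. Its mitochondrial share of reads was 5.98%, against 9.13 to 12.6% elsewhere, and HOXC8, a positional homeobox gene picked with its values known, stood at 1.97 CPM, against 23.2 to 32.1 CPM. HOXC10, a more caudal gene of the same cluster, separated the genotypes instead, with 3.15, 2.41 and 3.80 CPM in deletion replicates 1 to 3 and 1.11, 0.434 and 0.138 CPM in wild-type replicates 1 to 3. What part the level of the cord sampled has in the class II values was not tested. Each member's value is also given without wild-type replicate 3. Each replicate is its own animal, and its number is only a name.

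Among the antigen-presenting chains, SLA-DQB1, the beta chain of the DQ molecule, had 15.3, 19.3 and 25.7 CPM in deletion replicates 1 to 3, against 52.9, 53.8 and 33.6 CPM in wild-type replicates 1 to 3. All 3 deletion libraries lay below all 3 wild-type libraries. Group means were 20.1 ± 5.26 CPM in deletion animals and 46.8 ± 11.4 CPM in wild-type animals (SD, n = 3 each). This put deletion animals at 43.0% of wild type (95% interval 29.0 to 64.0%). Its log2 fold change, deletion over wild type as throughout, was -1.22 (SE 0.25; edgeR quasi-likelihood adjusted p 0.0675), short of the 0.05 threshold. Without wild-type replicate 3 the log2 fold change was -1.47 and the gene passed (edgeR quasi-likelihood adjusted p 0.0159). On leaving out any other library SLA-DQB1 did not pass, at edgeR adjusted p from 0.111 to 0.237.

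HLA-DRA, the alpha chain of the DR molecule, had 10.3, 20.9 and 38.8 CPM in deletion replicates 1 to 3, against 51.5, 69.6 and 41.3 CPM in wild-type replicates 1 to 3. The groups did not overlap, but deletion replicate 3 came close to wild-type replicate 3. The deletion libraries differed from each other more in this gene than in any other of the 8 rows when the highest is set against the lowest. The log2 fold change was -1.21 (SE 0.43; edgeR quasi-likelihood adjusted p 0.178). Without deletion replicate 3 it was -1.84 (edgeR quasi-likelihood adjusted p 0.112), and without deletion replicate 1 it was -0.86 (0.266). Leaving out wild-type replicate 3 gave -1.44 (edgeR quasi-likelihood adjusted p 0.162). DESeq2 on all libraries passed HLA-DRA as lower, at -1.25 (DESeq2 adjusted p 0.0259).

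CD74 encodes the invariant chain and was by far the most abundant of the 8 rows. It had 279.6, 316 and 358 CPM in deletion replicates 1 to 3, against 581, 587 and 357 CPM in wild-type replicates 1 to 3. Wild-type replicate 3 was level with deletion replicate 3, so the groups overlapped by that library in TMM-scaled CPM. Means were 318 ± 39.3 CPM in deletion animals and 508 ± 131 CPM in wild-type animals (SD, n = 3 each). The log2 fold change was -0.68 (SE 0.22; edgeR quasi-likelihood adjusted p 0.139). Without wild-type replicate 3 it was -0.94, and CD74 passed (edgeR quasi-likelihood adjusted p 0.0178). On leaving out any other library CD74 did not pass, at edgeR adjusted p from 0.221 to 0.382.

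**Figure D1:**
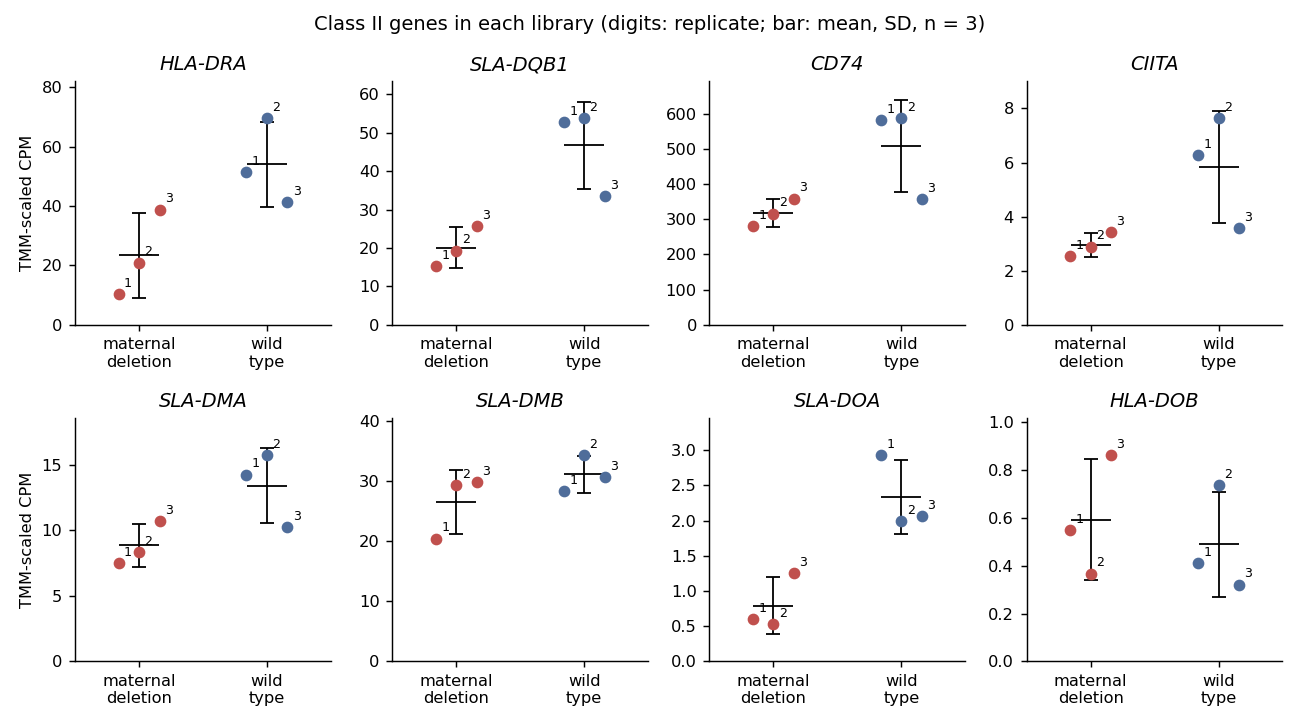
TMM-scaled CPM (vertical axes from 0) of 8 class II genes in 3 maternal deletion libraries (red) and 3 wild-type libraries (blue), 1 point per animal with its replicate number; bars are the mean and SD. For SLA-DQB1 the deletion points lie at 15.3 to 25.7 CPM, below the wild-type points at 33.6 to 53.8 CPM, while the SLA-DMB and HLA-DOB points overlap.

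CIITA, the class II coactivator, had 2.55, 2.89 and 3.41 CPM in deletion replicates 1 to 3, against 6.28, 7.64 and 3.58 CPM in wild-type replicates 1 to 3. The groups did not overlap, with wild-type replicate 3 only just above the deletion libraries. Means were 2.95 ± 0.437 CPM in deletion animals and 5.83 ± 2.07 CPM in wild-type animals (SD, n = 3 each). The log2 fold change was -0.98 (SE 0.31; edgeR quasi-likelihood adjusted p 0.136). Without wild-type replicate 3 it was -1.30, and CIITA passed (edgeR quasi-likelihood adjusted p 0.0307). On leaving out any other library CIITA did not pass, at edgeR adjusted p from 0.227 to 0.371.

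The DM heterodimer loads peptides and is made of SLA-DMA and SLA-DMB. SLA-DMA had 7.49, 8.34 and 10.7 CPM in deletion replicates 1 to 3, against 14.3, 15.8 and 10.2 CPM in wild-type replicates 1 to 3. Deletion replicate 3 exceeded wild-type replicate 3, so the groups overlapped in TMM-scaled CPM. The log2 fold change of SLA-DMA was -0.60 (SE 0.22; edgeR quasi-likelihood adjusted p 0.178), and -0.82 (0.0616) without wild-type replicate 3. SLA-DMB had 20.5, 29.4 and 29.9 CPM in deletion replicates 1 to 3, against 28.4, 34.4 and 30.7 CPM in wild-type replicates 1 to 3. Only deletion replicate 1 lay below every wild-type library. The log2 fold change of SLA-DMB was -0.23 (SE 0.17; edgeR quasi-likelihood adjusted p 0.527), and its 95% interval ran from 64.9 to 112% of the wild-type level. It was -0.07 without deletion replicate 1, -0.36 without deletion replicate 3 and -0.30 (edgeR adjusted p 0.379) without wild-type replicate 3.

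The DO heterodimer, which in people and mice is best known from B cells, was near the limit of these libraries. SLA-DOA, its alpha chain, had 12, 10 and 29 reads in deletion replicates 1 to 3, against 50, 46 and 45 reads in wild-type replicates 1 to 3. Its level was 0.792 ± 0.401 CPM in deletion animals and 2.33 ± 0.522 CPM in wild-type animals (SD, n = 3 each), without overlap. Its log2 fold change was the largest in size of the 8 rows, at -1.53 (SE 0.42; edgeR quasi-likelihood adjusted p 0.105), and was -1.67 (0.0968) without wild-type replicate 3. HLA-DOB, the beta chain, had 11, 7 and 20 reads in deletion replicates 1 to 3, against 7, 17 and 7 reads in wild-type replicates 1 to 3. Its level was 0.594 ± 0.251 CPM in deletion animals and 0.490 ± 0.219 CPM in wild-type animals (SD, n = 3 each), and the groups overlapped. A difference in HLA-DOB was not detectable at this depth, since the 95% interval ran from 53.6 to 273% of the wild-type level.

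All 5 members and 7 of the 8 rows had negative log2 fold changes, as did 43.3% of all genes tested. By edgeR's quasi-likelihood test 0 of the 5 members passed an adjusted p of 0.05 in either direction, where 0.844% of 14566 genes tested passed as lower and 0.178% as higher. At an unadjusted p under 0.05, 4 of 5 members were lower and 0 higher, beside 9.09% of all genes lower and 11.1% higher. By DESeq2, 2 of 5 members passed as lower, namely SLA-DQB1 and SLA-DOA (DESeq2 adjusted p 0.000134 and 0.0252), beside 5.18% of all genes with an adjusted p. CD74 and HLA-DRA passed as lower too (DESeq2 adjusted p 0.0218 and 0.0259), making 4 of the 8 rows. In TMM-scaled CPM the groups did not overlap, with deletion below wild type, in 3 of 5 members and in 11.2% of all genes tested. Without wild-type replicate 3, edgeR passed 2 of 5 members as lower, beside 4.31% of all genes. With no filter on low counts it passed 1, SLA-DQB1, beside 0.76%. The median log2 fold change was -0.98 over the members, -0.83 over the 8 rows and 0.05 over all genes tested. Neighbouring genes of 1 pathway in the same libraries are not independent of each other.

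**Figure D2:**
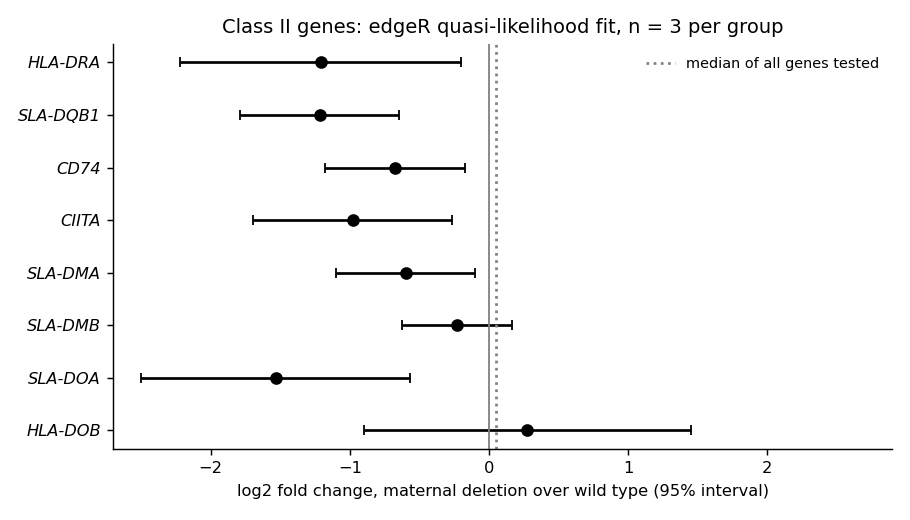
Log2 fold change of 8 class II genes, maternal deletion over wild type, with 95% intervals from the edgeR quasi-likelihood fit (n = 3 per group); the dotted line marks the median of all genes tested, 0.05. The points of 7 genes lie below 0, from -0.23 for SLA-DMB to -1.53 for SLA-DOA, and that of HLA-DOB lies at 0.27.

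A two-sided exact permutation test on log2 levels gave p = 0.1 for SLA-DQB1, SLA-DOA and CIITA, the smallest that 3 against 3 allows. The same exact test gave p = 0.2 for SLA-DMA and p = 0.4 for SLA-DMB. Deletion replicate 1 was the lowest library in 4 of the 5 members, and wild-type replicate 2 the highest in 4 of the 5. The exceptions were both in SLA-DOA, which was lowest in deletion replicate 2 and highest in wild-type replicate 1.

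Each genotype had 1 animal with an ID starting with 14 and 2 with IDs starting with 15, a prefix that the labels leave unexplained. With prefix 14, 1 animal of each genotype, the ratio of deletion to wild type was 0.289 for SLA-DQB1, 0.406 for CIITA, 0.525 for SLA-DMA, 0.721 for SLA-DMB and 0.204 for SLA-DOA. In the animals of prefix 15 the corresponding ratios of group means were 0.515, 0.561, 0.733, 0.911 and 0.438. All 5 members were thus below the wild-type level within both prefixes, nearer to it in prefix 15. With the prefix as a block, edgeR's quasi-likelihood test passed 0 of the 5 members, beside 0.0206% of all genes as lower, with SLA-DQB1 at -1.23 (adjusted p 0.117).

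The authors' deposited table gives its own comparison, with AS for the deletion group and a signed fold change that is negative where AS is lower. In the authors' deposited table SLA-DQB1 has a signed fold change of -2.30 at a false discovery rate of 3.645e-05 and HLA-DRA one of -2.30 at 0.00447. Of the 5 members, SLA-DQB1 alone is under a false discovery rate of 0.05 in the authors' deposited table, where 3.81% of 17614 genes with a rate are under it and lower. The authors' deposited table lists SLA-DOA at -2.81 (rate 0.0771), CD74 at -1.58 (0.0606) and CIITA at -1.95 (0.115). It lists SLA-DMA at -1.50 (0.185), SLA-DMB at -1.16 (0.806) and HLA-DOB at 1.22 (0.931), from the authors' deposited table as well. The test behind those rates is not named in the labels or headers.

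Levels of different genes were compared per length, in the deposited TPM (transcript abundance corrected for gene length). CD74 came first in both groups, with 279.7 ± 46.1 TPM in deletion animals and 459.6 ± 81.8 TPM in wild-type animals (SD, n = 3 each), apart from every other row. In deletion animals SLA-DMB came next with 19.6 ± 4.24 TPM, then SLA-DMA with 12.4 ± 2.94, HLA-DRA with 11.3 ± 7.46 and SLA-DQB1 with 9.25 ± 2.83 TPM. In wild-type animals HLA-DRA came next with 26.8 ± 6.44 TPM, then SLA-DMB with 24.1 ± 4.04, SLA-DQB1 with 22.1 ± 3.64 and SLA-DMA with 19.4 ± 3.00 TPM. In each group, neighbours in order among these 4 genes overlapped in range, and the last of the 4 lay apart from the next row. In deletion animals SLA-DMB lay above SLA-DQB1 without overlap, and SLA-DMB exceeded SLA-DMA within every one of the 6 libraries. CD74 and SLA-DMA, whose groups overlapped in TMM-scaled CPM, did not overlap between genotypes in TPM, but did overlap in the deposited RPKM. CD74 ran from 243 to 332 TPM in deletion libraries and from 371 to 532 TPM in wild-type libraries. SLA-DMA ran from 10.4 to 15.8 TPM in deletion libraries and from 16.9 to 22.8 TPM in wild-type libraries. In RPKM, deletion replicate 3 exceeded wild-type replicate 3 in both genes. The values were 100.015 against 98.2994 RPKM for CD74 and 4.76 against 4.49 RPKM for SLA-DMA. The separation of these 2 genes in TPM thus depended on the unit, and the share of all genes separated in TPM was not counted. SLA-DOA, CIITA and HLA-DOB were the lowest 3 in both groups, at 0.605 to 0.737 TPM in deletion means and 0.511 to 2.21 TPM in wild-type means.

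Within a library, some pairs of genes kept other proportions in the 2 genotypes. These pairs were chosen after their values were seen and were not tested. The TPM of SLA-DMB, a peptide editor, over that of SLA-DQB1, a presenting chain, was 2.16, 2.45 and 1.87 in deletion replicates 1 to 3 and 0.864, 1.03 and 1.47 in wild-type replicates 1 to 3, without overlap. HLA-DOB over SLA-DOA was 1.01, 0.769 and 0.758 in deletion replicates and 0.154, 0.406 and 0.171 in wild-type replicates, resting on few reads. CD74 over HLA-DRA was 49.8, 27.8 and 17.02 in deletion replicates and 20.8, 15.5 and 15.9 in wild-type replicates, which overlapped. SLA-DMA over SLA-DMB, the 2 chains of DM, was 0.695, 0.538 and 0.681 in deletion replicates and 0.954, 0.869 and 0.633 in wild-type replicates, and overlapped too.

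Other genes of class II processing, regulation and turnover had 14 tested members among 16 listed, with 1 lower by edgeR (0.844% of all genes), none higher and a median log2 fold change of -0.14. CTSH, a lysosomal aminopeptidase, fell to 5.24, 4.72 and 5.14 CPM in deletion replicates 1 to 3, against 14.8, 19.2 and 9.55 CPM in wild-type replicates 1 to 3. Its log2 fold change was -1.53 (SE 0.26; edgeR quasi-likelihood adjusted p 0.0497). The call held without wild-type replicate 3 and was lost on leaving out any other library, at edgeR adjusted p from 0.0789 to 0.208. It was also lost with the ID prefix as a block (edgeR adjusted p 0.0976), RLE scaling (0.0508) and total-count scaling (0.0515). CTSS, the cathepsin that trims the invariant chain, stood at 24.5 ± 5.24 CPM in deletion animals and 40.4 ± 5.36 CPM in wild-type animals (SD, n = 3 each), without overlap (edgeR quasi-likelihood adjusted p 0.0943). IFI30, a thiol reductase that opens disulphide bonds of antigens, and NFYB, an NF-Y subunit, stood at log2 fold changes of -0.75 (SE 0.22) for IFI30 and -0.23 (SE 0.11) for NFYB. DESeq2 passed CTSH, CTSS and IFI30, 3 genes in all, as lower, where it passed 5.18% of all genes. The groups did not overlap, with deletion below, in 5 of the 14, beside 11.2% of all genes.

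Interferon gamma is the main inducer of CIITA outside professional antigen-presenting cells. IFNG had 1 read over all 6 libraries. The list of interferon gamma signalling and myeloid inducers had 9 tested members and a median log2 fold change of -0.02. Of these, 0 passed the edgeR or DESeq2 threshold, and 1 was lower at an unadjusted p under 0.05, beside 9.09% of all genes. IFNGR2, a receptor chain, gave -0.36 (SE 0.15), IRF2 gave -0.23 (SE 0.12) and the kinase gene JAK1 gave 0.18 (SE 0.16). IRF1, an interferon-induced transcription factor, stood at 19.0, 17.3 and 21.0 CPM in deletion replicates 1 to 3, against 57.7, 25.0 and 19.0 CPM in wild-type replicates 1 to 3. Its log2 fold change of -0.82 was -0.20 without wild-type replicate 1.

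The class I pathway shows peptides from inside the cell to CD8+ T cells. All 11 of its tested genes stayed within the edgeR quasi-likelihood threshold, with 0 at an unadjusted p under 0.05, 0 by DESeq2 and a median log2 fold change of -0.20. B2M, the light chain of class I, stood at 545 ± 71.6 CPM in deletion animals and 678 ± 89.5 CPM in wild-type animals (SD, n = 3 each), with overlap. The summed class I list was 1693 to 1839 CPM in deletion libraries and 1885 to 1961 CPM in wild-type libraries, without overlap. No row was matched to SLA-1, SLA-2, SLA-3 or TAPBP, so this sum holds none of those genes. Its largest parts were B2M, CALR and CANX, the last at 581 CPM in deletion animals and 521 CPM in wild-type animals. The groups did not overlap, with deletion below, in 2 of the 11 genes, beside 11.2% of all genes tested. PSMB9, an immunoproteasome subunit, gave -0.55 (SE 0.27), the peptide transporter subunit TAP2 gave -0.27 (SE 0.15) and the chaperone CALR gave -0.19 (SE 0.12). On leaving out 1 library, PSMB9 ran from -0.82 to -0.29, TAP2 from -0.45 to -0.21 and B2M from -0.48 to -0.21. Genes of T cell costimulation and checkpoint ligands had 5 tested members with 0 past the edgeR threshold, 0 at an unadjusted p under 0.05, 0 by DESeq2 and a median of -0.39. Among them CD274 gave -0.71 (SE 0.40), PDCD1LG2 gave -0.96 (SE 0.55), CD40 gave -0.20 (SE 0.17) and CD80 gave -0.39 (SE 0.36). CD80 was -0.059 when wild-type replicate 2 was left out and -0.66 when wild-type replicate 3 was, and CD274 ran from -1.05 to -0.46 on leaving out 1 library. CD74 also serves at the cell surface as a receptor for the cytokine MIF. MIF gave 0.18 (SE 0.24), and the coreceptors CD44 and CXCR4 gave -0.41 (SE 0.22; -0.18 without deletion replicate 1) and -0.03 (SE 0.16), with 0 of these 3 past the edgeR threshold, an unadjusted p under 0.05 or the DESeq2 threshold.

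Marker lists of the cells that carry class II were read beside these values; in bulk tissue, fewer cells of a type and less RNA per cell cannot be told apart. Summed microglia markers were 861, 863 and 921 CPM in deletion replicates 1 to 3 and 896, 918 and 934 CPM in wild-type replicates 1 to 3. These ranges overlapped. Of 11 tested microglia markers 0 passed the edgeR threshold, an unadjusted p under 0.05 or the DESeq2 threshold, with a median log2 fold change of -0.09, and none was at 0 in any library. Summed markers of border-associated macrophages, which lie along vessels and in meninges, were 42.8, 50.7 and 44.2 CPM in deletion replicates 1 to 3 and 74.7, 106.7 and 46.4 CPM in wild-type replicates 1 to 3. Of 8 tested, 1 was lower by edgeR (0.844% of all genes), 4 by DESeq2 (5.18%) and 5 without overlap (11.2%), and the median log2 fold change was -1.14; CD209 was at 0 in at least 1 library. The marker that passed was LYVE1, a hyaluronan receptor, at 0.271 ± 0.0526 CPM in deletion animals and 2.18 ± 0.787 CPM in wild-type animals (SD, n = 3 each; edgeR quasi-likelihood adjusted p 0.0441). LYVE1 kept that call on leaving out wild-type replicate 3 and lost it on leaving out any other library, at adjusted p from 0.0759 to 0.208 by edgeR; with the ID prefix as a block the edgeR adjusted p was 0.0897. FOLR2, a folate receptor and the marker with the most reads in deletion libraries, differed from the list's median in sign, at 0.43 (SE 0.28; edgeR adjusted p 0.470), with 20.6, 31.0 and 20.96 CPM in deletion replicates 1 to 3 and 20.7, 22.2 and 11.2 CPM in wild-type replicates 1 to 3. Summed genes of fibroblasts and meninges ran from 1217 to 1628 CPM in deletion libraries and from 3145 to 3758 CPM in wild-type libraries. Of those 8 genes, 5 were lower by edgeR (0.844% of all genes), 5 by DESeq2 (5.18%) and 5 without overlap (11.2%). Summed smooth muscle markers ran from 49.9 to 95.5 CPM in deletion libraries and from 362 to 2861 CPM in wild-type libraries, and Schwann cell markers from 249 to 438 CPM in deletion libraries and from 860.3 to 4693 CPM in wild-type libraries, both without overlap. Endothelial markers ran from 259 to 358 CPM in deletion libraries and from 374 to 584 CPM in wild-type libraries. Their part in the class II values was not tested.

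Lymphocyte and dendritic cell markers were uneven, with several near 0 and a single gene as the largest part of each list's sum. The B cell list summed to 66.5 to 85.6 CPM in deletion libraries and 83.7 to 104.6 CPM in wild-type libraries, nearly all of it CD79A. MS4A1 and CD79B had 20 and 18 reads over all libraries, and each was at 0 in at least 1. The T cell list summed to 9.79 to 11.7 CPM in deletion libraries and 9.86 to 12.98 CPM in wild-type libraries, with CD3E and CD3G at 0 in at least 1 library. CD2 averaged 6.92 CPM in deletion animals and 6.63 CPM in wild-type animals, the largest part of that sum. The dendritic cell list summed to 40.7 to 42.9 CPM in deletion libraries and 37.0 to 45.1 CPM in wild-type libraries, with CCR7 and CD1E at 0 in at least 1 library. Its largest part was FLT3, which averaged 28.0 CPM in deletion animals and 22.4 CPM in wild-type animals. In these 3 lists 0 of 12 tested genes passed by edgeR's quasi-likelihood test or DESeq2. At an unadjusted p under 0.05, 1 dendritic cell and 1 T cell gene were lower, beside 9.09% of all genes. These were ZBTB46, at a log2 fold change of -0.52 (SE 0.21) with overlap, and CD4, at -1.63 (SE 0.48) without overlap. CD4 had 92 reads over all libraries. The groups did not overlap, with deletion below, in 2 of 5 tested T cell genes (CD4 and CD3E) and 1 of 4 B cell genes (CD22). Among the 3 tested dendritic cell genes the count was 0, and over all genes tested the share was 11.2%.

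**Figure D3:**
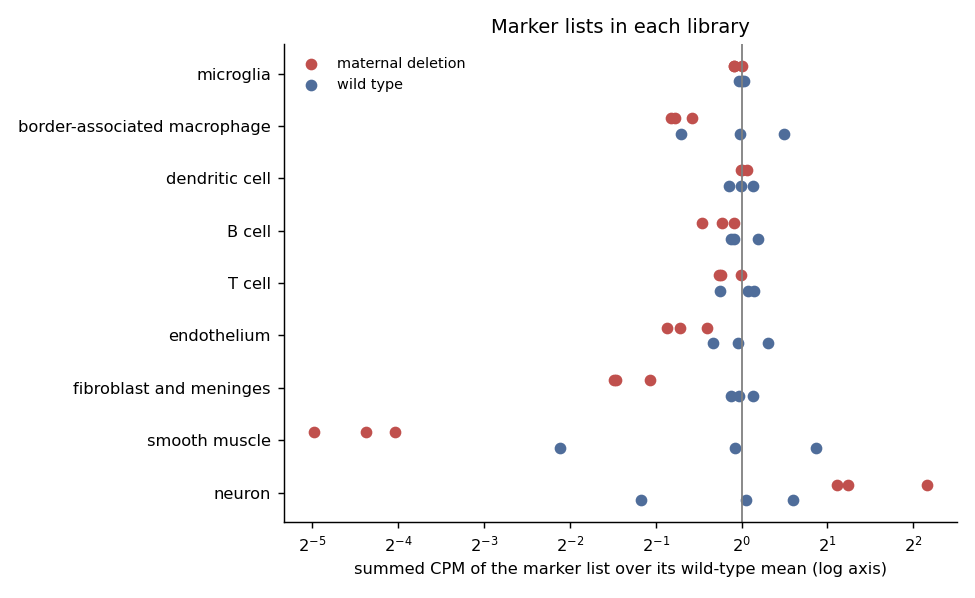
Summed CPM of each marker list in each library, divided by the wild-type mean of that list, on a log axis; 3 maternal deletion libraries (red, upper row of each list) and 3 wild-type libraries (blue, lower row). Microglia markers overlap near 1, whereas fibroblast and meninges, endothelium and smooth muscle markers lie lower, and neuron markers higher, in all 3 deletion libraries.

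Class II reads were also set per 100 reads of a marker list in the same library, a value that no scaling between libraries touches. Per 100 reads of microglia markers, SLA-DQB1 had 1.77, 2.24 and 2.79 reads in deletion replicates 1 to 3 and 5.90, 5.86 and 3.60 reads in wild-type replicates 1 to 3, without overlap. On the same measure SLA-DOA, CIITA and HLA-DRA also lay lower in all 3 deletion libraries, whereas SLA-DMA, SLA-DMB, CD74 and HLA-DOB overlapped. CD74 had 32.5, 36.6 and 38.9 reads per 100 microglia reads in deletion replicates and 64.8, 63.9 and 38.2 in wild-type replicates.

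Per 100 reads of border-associated macrophage markers, SLA-DQB1 had 35.7, 38.1 and 58.2 reads in deletion replicates and 70.8, 50.4 and 72.5 reads in wild-type replicates, with overlap. Of the other 7 rows, 6 overlapped on this measure, CD74 with 695 ± 100.4 in deletion animals and 699 ± 129 in wild-type animals (SD, n = 3 each). HLA-DOB was higher in all 3 deletion libraries. The list sum leans on FOLR2, which made up 47.4 to 61.2% of it in deletion libraries and 20.8 to 27.7% in wild-type libraries. Without FOLR2, an alternative chosen after seeing the data and not tested, SLA-DQB1 averaged 92.4 ± 21.6 in deletion animals and 85.7 ± 19.1 in wild-type animals (SD, n = 3 each), still with overlap. CD74 then averaged 1467 ± 186 in deletion animals and 927 ± 204 in wild-type animals (SD, n = 3 each). CD74, SLA-DMA, SLA-DMB and HLA-DOB were then higher in all 3 deletion libraries. Which group mean was higher depended on that marker for SLA-DQB1, CIITA, HLA-DRA and CD74, the last nearly level with FOLR2 included. With or without FOLR2 the deletion mean was higher for SLA-DMA, SLA-DMB and HLA-DOB, and lower for SLA-DOA.

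The 8 genes whose levels followed the members most closely over the 6 libraries were CD163, CDH1, PGM5, SMPD2, DCAF6, MMP14, PDZRN3 and ARHGDIB. Likeness was Pearson's r with the mean standardized log2 CPM of the 5 members, and these genes had r from 0.988 to 0.996. Of 11631 genes compared, 333 had r over 0.9, so close likeness over 6 libraries was not particular to the 8 named. Genotype and the marker levels of several cell types differ between the libraries, and their part in these r values was not tested. CD163, a haemoglobin scavenger receptor of macrophages, had 0.499, 0.997 and 1.94 CPM in deletion replicates 1 to 3, against 7.80, 11.02 and 3.76 CPM in wild-type replicates 1 to 3. CDH1, which encodes E-cadherin, had 7.99, 10.1 and 15.3 CPM in deletion replicates, against 30.5, 34.9 and 20.1 CPM in wild-type replicates. Among the members r was highest for SLA-DQB1 and lowest for SLA-DMB, 0.99 and 0.777. Each member is part of the profile, which raises its r, so these values are not comparable with those of other genes. HLA-DOB, outside the profile, had 0.133.

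**Figure D4:**
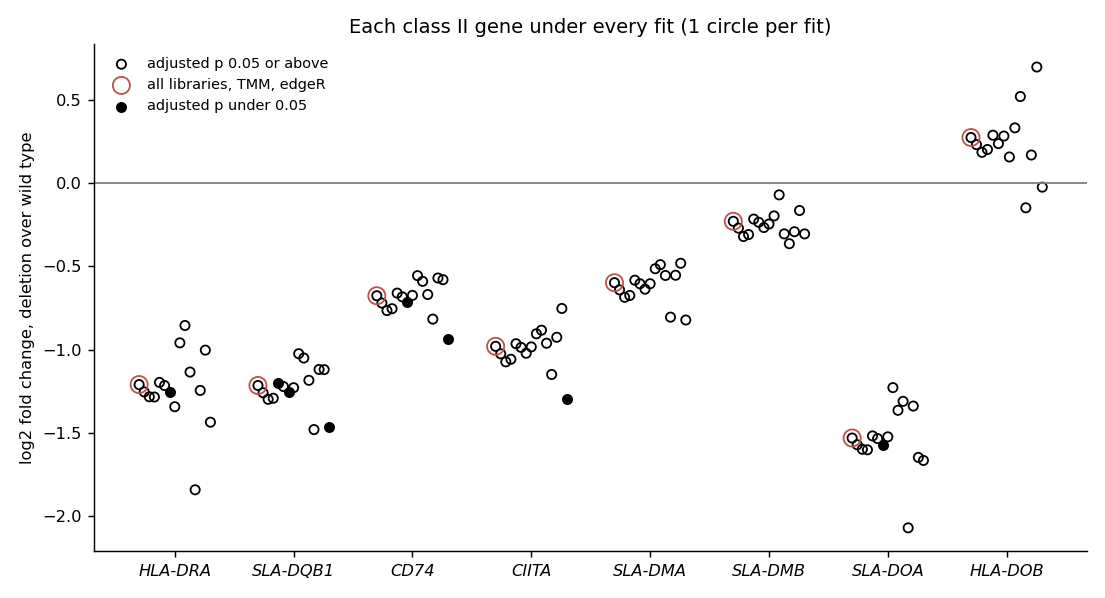
Log2 fold change of 8 class II genes, maternal deletion over wild type (vertical axis), under each fit in turn; 1 circle per fit, filled where the adjusted p was under 0.05, with the red ring around the edgeR fit of all libraries. Every circle of 7 genes lies below 0, SLA-DQB1 between -1.48 and -1.03, while those of HLA-DOB lie on both sides.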

How the data were processed

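RNA from flash-frozen cord was made into stranded poly(A) libraries and sequenced as paired ends, per the labels' protocols. The authors deposited a whole-number count of exon reads per gene, per the file headers, with blanks for genes without reads, and RPKM and TPM values. The authors' deposited table for the series adds a signed fold change as a score, p-values and a false discovery rate. Its group means of CPM, a deposited signal, were used only to check which group AS is. The aligner, annotation and build were not given in the sources used here.

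Counts were filtered by filterByExpr, given TMM factors and compared by the robust quasi-likelihood test of edgeR (version 4.0.16; R 4.3.3), with Benjamini-Hochberg adjustment over 14566 genes. Levels are TMM-scaled CPM, and 3 reads correspond to 0.130 to 0.176 CPM; this floor covers counting error only. DESeq2 1.42.0, other scalings and filters, the ID prefix and leaving out each library were alternatives. Both tools were tested on simulated data. No 2 libraries came within sampling noise of each other. Members and the 18 gene lists were chosen with earlier results of these data known. Named were the members, UBE3A and up to 4 tested genes of each of 5 pathway lists by p. Also named were the 8 genes most like the members (mean log2 CPM not under 1). Others are single calls, large parts of a list's sum, genes at 0 or with an unadjusted p under 0.05, or are said to be chosen after their values. The mean log2 profile used a prior count of 2, the permutation test a pseudocount of 0.5. The endothelium, smooth muscle, Schwann cell and blood lists had 0, 4, 1 and 0 genes lower by edgeR of 7, 6, 5 and 5 tested (4, 6, 5 and 1 by DESeq2; 4, 6, 5 and 2 at an unadjusted p under 0.05). The neuron, oligodendrocyte and astrocyte lists had 0 by edgeR of 7, 5 and 5 (3 higher, 0, and 1 lower by DESeq2; 6 higher, 0, and 1 lower unadjusted). Beside these counts, 0.844% of all genes were lower by edgeR, 5.18% by DESeq2 and 9.09% at an unadjusted p under 0.05. Higher were 0.178% by edgeR, 569 of 15301 genes by DESeq2 and 11.1% at an unadjusted p under 0.05. No sequences are printed.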

Additional observations from a re-analysis of the deposited data

How the results depend on the processing

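The 5 members kept negative log2 fold changes in all 14 alternative fits. Members passed as lower numbered 1 with no filter (SLA-DQB1, edgeR adjusted p 0.04997), 2 with DESeq2 and 0 to 2 on leaving out 1 library, the 2 being SLA-DQB1 and CIITA without wild-type replicate 3; none passed as higher. Their median log2 fold change ran from -1.30 to -0.75 on leaving out 1 library, -1.30 being without wild-type replicate 3. With the rows of CD74, HLA-DRA and HLA-DOB, an alternative chosen after seeing the data, it was -0.83. Pathway list genes passed as lower numbered 1 with all libraries, 3 with DESeq2, 0 with RLE scaling, total-count scaling, the ID prefix as a block or ID prefix 15 alone, and 0 to 1 on leaving out 1 library. Over all tested genes, 123 passed as lower and 26 as higher; the counts were 793 and 569 with DESeq2, 3 and 0 with the prefix block, 0 and 0 in prefix 15 alone, and 0 to 639 and 0 to 120 on leaving out 1 library. Lower and higher calls were 93 and 9 with RLE scaling, 94 and 6 with total-count scaling, and 160 and 77 with no filter; lower calls were 176 with upper-quartile scaling and 127 with at least 1 CPM in 3 libraries. On leaving out 1 library, HLA-DOB ran from -0.15 (without deletion replicate 3) to 0.70, with -0.02 without wild-type replicate 3. CXCR4 ran from -0.20 to 0.066 (without deletion replicate 1), above 0 also without deletion replicate 2 and wild-type replicate 3, and MIF from -0.11 (without wild-type replicate 3) to 0.46. The cause of these moves was not tested. Of 20 named list genes, 10 moved by over 1.5 times on leaving out 1 library. RPKM in place of TPM cannot move a ratio within a library and tests nothing about such ratios. Between libraries it can move values, and the groups of CD74 and SLA-DMA overlapped in RPKM but not in TPM. No paired analysis was possible because replicate numbers were given in accession order and only name the animals; the ID prefix was fitted as a block in its place. SLA-DOA and HLA-DOB rest on 7 to 50 reads a library.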
